A study of Mus musculus with 18 samples.

Results

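The 10 genes described here carry glucose into the cell and through glycolysis to lactate: the glucose transporter gene Slc2a1, the hexokinase genes Hk1, Hk2 and Hk3, the phosphofructokinase genes Pfkl and Pfkp, and Aldoa, Pgk1, Pkm and Ldha. They were chosen by name among the 34745 genes of the count table, and all 10 passed the filter on low counts that kept 14241 genes. Marrow of mice labelled as Zmat1 knockout or as wild-type littermates (C57BL/6 background, deleted in all cells, 4 to 8 weeks old per the methods) was cultured into macrophages with M-CSF, for 3 days by the design text and 4 days by the methods. The cells were then sequenced without RANKL (day 0) or after RANKL for 1 or 3 days, with M-CSF in all groups. Each of the 6 groups held 3 libraries, whose labels do not say whether they came from separate mice, so p-values measure the spread between these libraries. In bulk libraries, fewer cells of a type cannot be told apart from less RNA per cell.

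The targeted gene did not follow the labels. Zmat1, a zinc finger gene, had 2.19 to 7.50 CPM (the count scaled to library size) in the libraries labelled WT and 3.49 to 7.61 in those labelled KO, so both are called by label throughout. The part deleted is not given in the labels, and whether the counted exons lie in it was not tested. Of the titles, 5 among the 18 were written with a double hyphen (1 of 3 for KO day 0, WT day 0 and WT day 1, and 2 of 3 for KO day 1), and WT day 1 has libraries numbered 1, 1 and 2. Between the 2 title styles, 3310 of 14241 genes (23.2%) differed at an adjusted p under 0.05, but none of the 10 members (lowest adjusted p 0.0628, Hk3). Total counts were 13789775 to 17559958 per library, and a member had 254 to 45827 counts in a library.

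Glycolysis turns glucose into pyruvate in the cytosol, and pyruvate is reduced to lactate or enters mitochondria. Hexokinase traps glucose by phosphorylating it, phosphofructokinase is a main point of control, and several steps have isoenzymes with different tissue patterns. Macrophages fuse under RANKL into osteoclasts, the bone-resorbing cells, which have a high energy demand and many mitochondria. Many genes of the pathway are known targets of the hypoxia-inducible factor and of Myc, whose binding motifs share the letters ACGTG.

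By day 3 of RANKL, 8 of the 10 members had risen and 1, Hk3, had fallen in both labels, and Hk2 was not called in either. All 9 calls held at an adjusted p under 0.05, in the WT label beside 50.2% of all tested genes called in either direction, and in the KO label beside 42.5%. The share of genes called higher was 23.7% (WT) and 20.2% (KO), and that called lower 26.5% and 22.3%. The median log2 fold change over the 10 members was 1.10 (WT) and 0.97 (KO), against -0.031 and -0.0052 over all tested genes. Scaling by total counts in place of TMM raised the median of all genes by a log2 value of 0.36 in the WT label and 0.29 in the KO label, and values here are on the TMM scale, relative to that median.

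**Figure D1:**
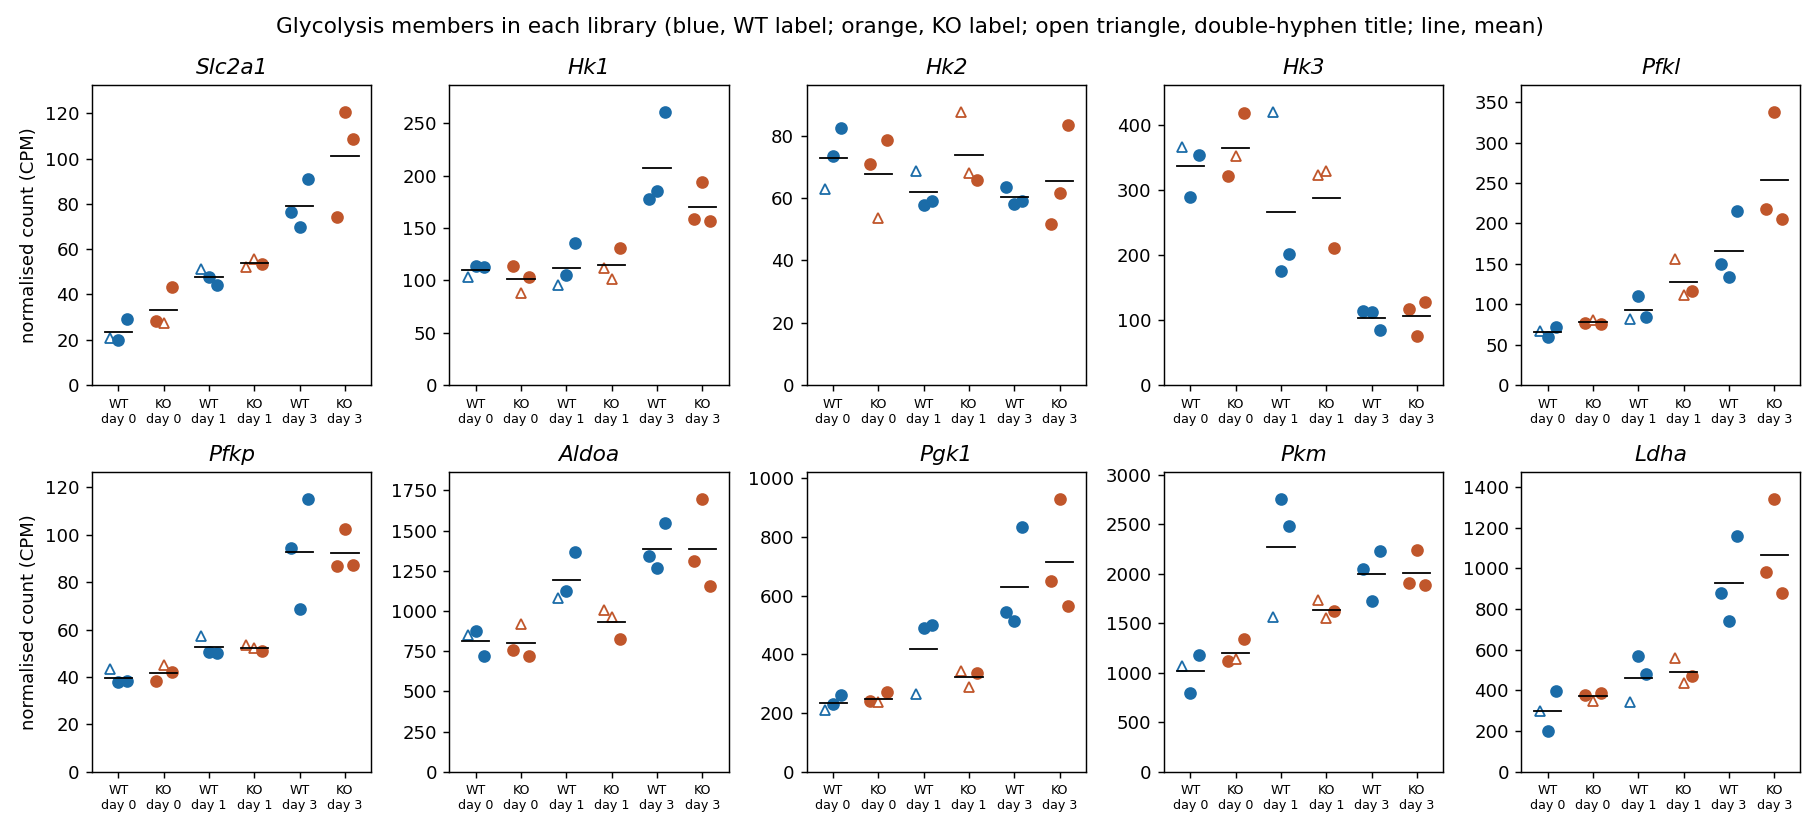
Normalised counts (CPM, linear axis from 0) of the 10 members in each of the 18 libraries by label and day; points are libraries, open triangles those with a double-hyphen title, and lines group means. Slc2a1, Pfkl, Pfkp, Pgk1 and Ldha climb from day 0 to day 3 in both labels, Hk3 falls, and the Hk2 groups overlap.

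Slc2a1 encodes GLUT1, the basal glucose transporter of many cells. Its normalised counts in the WT-labelled libraries were 20.9, 20.0 and 29.4 CPM at day 0, 51.3, 47.9 and 44.2 at day 1 and 76.5, 69.7 and 90.8 at day 3. With the KO label they were 28.5, 27.2 and 43.3, then 52.1, 55.6 and 53.6, then 74.4, 121 and 109 CPM. No library of a later day fell within the range of an earlier one in either label. The log2 fold change from day 0 to day 3 was 1.75 ± 0.21 (SE; adjusted p = 2.67e-05) in the WT label and 1.62 ± 0.21 (adjusted p = 7.96e-05) in the KO label, 3.37-fold and 3.07-fold.

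Bases upstream of the transcription start are given for the members with a single RefSeq window holding ACGTG: Slc2a1 and Pgk1, which rose, Hk3, which fell, and Hk2, which was not called. Each line holds the 250 bases before the start on the gene's strand (RefSeq, GRCm38.p6), with each ACGTG or GCGTG in either orientation in capitals.
Slc2a1, chr4:119108495-119108744, plus strand: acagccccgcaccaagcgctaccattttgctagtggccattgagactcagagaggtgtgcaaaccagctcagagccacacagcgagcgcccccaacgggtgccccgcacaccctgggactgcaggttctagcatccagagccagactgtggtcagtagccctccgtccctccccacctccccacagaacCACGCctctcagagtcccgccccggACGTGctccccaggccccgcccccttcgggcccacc
Pgk1, chrX:106186850-106187099, plus strand: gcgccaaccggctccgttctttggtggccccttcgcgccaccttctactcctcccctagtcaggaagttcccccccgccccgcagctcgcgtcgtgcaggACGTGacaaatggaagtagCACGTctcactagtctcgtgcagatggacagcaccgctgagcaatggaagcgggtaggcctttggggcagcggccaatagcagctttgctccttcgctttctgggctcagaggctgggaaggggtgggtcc
Hk3, chr13:55021386-55021635, minus strand: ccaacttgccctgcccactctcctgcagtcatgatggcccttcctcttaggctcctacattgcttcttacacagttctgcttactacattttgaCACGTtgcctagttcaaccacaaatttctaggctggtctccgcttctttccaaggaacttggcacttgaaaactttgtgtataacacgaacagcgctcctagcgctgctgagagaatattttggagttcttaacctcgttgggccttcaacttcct
Hk2, chr6:82774455-82774704, minus strand: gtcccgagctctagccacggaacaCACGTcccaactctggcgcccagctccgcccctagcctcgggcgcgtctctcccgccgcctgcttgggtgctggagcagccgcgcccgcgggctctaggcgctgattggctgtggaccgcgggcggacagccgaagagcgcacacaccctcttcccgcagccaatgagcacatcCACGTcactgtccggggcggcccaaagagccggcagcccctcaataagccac
ACGTG occurred in 1 or more windows of 7 of the 10 members (Slc2a1, Hk2, Hk3, Aldoa, Pgk1, Pkm and Ldha), against 18.5% of the 27025 genes with a window, and GCGTG in 5 of 10 against 30.9%. Over windows, ACGTG was in 8 of 15 against 16.6% of 32851. Overlapping Aldoa windows share the same ACGTG, 202 and 126 bases before their starts, so that site was counted more than once. The member that fell and the member that was not called both held ACGTG, and Hk1, Pfkl and Pfkp, which rose, held GCGTG and not ACGTG. The ACGTG of Slc2a1 began 36 bases before the start, and those of Pgk1 150 and 131 bases before it. Ldha had 5 ACGTG matches in its first window (overlapping pairs included), whose start matched no annotated transcript. Its other window held no ACGTG and 1 GCGTG. A match to 5 letters is a description of the sequence and no evidence of binding.

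The 3 hexokinase genes moved in different directions. Hk1, the broadly expressed hexokinase, had 103, 113 and 113 CPM at day 0, 95.3, 105 and 135 at day 1 and 177, 185 and 260.4 at day 3 in the WT-labelled libraries. The KO-labelled libraries had 113, 87.4 and 103, then 112, 101 and 130.4, then 158, 193 and 157 CPM. Day 3 lay above both earlier days without overlap in both labels, while days 0 and 1 overlapped. The log2 fold change at day 3 was 0.92 ± 0.17 (adjusted p = 0.00061) with the WT label and 0.75 ± 0.17 (adjusted p = 0.00354) with the KO label, and at day 1 it was 0.028 ± 0.17 and 0.18 ± 0.17, not called.

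Hk2, the inducible hexokinase of muscle and many tumours, stayed between 51.6 and 87.5 CPM in all 18 libraries. WT-labelled libraries had 62.7, 73.4 and 82.3 CPM at day 0 and 63.5, 58.2 and 59.1 at day 3. KO-labelled ones had 70.8, 53.5 and 78.7 at day 0 and 51.6, 61.7 and 83.5 at day 3. The groups overlapped. The log2 fold change at day 3 was -0.27 ± 0.18 (approximate 95% interval -0.63 to 0.083) with the WT label and -0.045 ± 0.18 (-0.40 to 0.31) with the KO label. Such intervals use the normal distribution here and are somewhat narrower than the edgeR test implies. Its sign depended on the scaling: with total counts the values were 0.085 and 0.22.

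Hk3, a hexokinase found mainly in myeloid cells, had 367, 290.1 and 353 CPM at day 0 and 115, 112 and 84.9 at day 3 in the WT label. The KO-labelled libraries had 321, 353 and 418 at day 0 and 116, 76.2 and 128 at day 3. All day 3 libraries lay below all day 0 libraries, and the log2 fold changes were -1.70 ± 0.30 in the WT label (adjusted p = 0.000434) and -1.77 ± 0.30 in the KO label (adjusted p = 0.000517), 0.308-fold and 0.294-fold. At day 1 the libraries spread most: 419.9, 176 and 201 CPM in the WT label, where the first is the double-hyphen library, and 323, 329.8 and 211 in the KO label, where the first 2 are. Without the WT day 1 double-hyphen library, and with that of WT day 0 kept, the day 1 change was called (-0.83, adjusted p = 0.0387). It was -0.34 ± 0.29 with both, not called.

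Within a library, isoenzyme ratios do not depend on scaling. The Hk3 to Hk1 count ratio was 3.56, 2.56 and 3.14 at day 0 and 0.646, 0.607 and 0.326 at day 3 in the WT label, and 2.84, 4.04 and 4.07 against 0.736, 0.394 and 0.818 in the KO label. The mean log2 ratio changed by -2.57 over both labels, to 0.168 of its day 0 value. The Hk2 to Hk1 ratio changed by -0.98 and the Hk3 to Hk2 ratio by -1.59. Each gave p = 0.005 in an exact 2-sided permutation of days within labels, the smallest the 400 orders allow (0.00667 adjusted over the 4 ratios), and the days did not overlap in either label. From day 0 to day 1 the 3 ratios changed by -0.50, -0.15 and -0.35, with exact permutation p of 0.13, 0.345 and 0.12. Without the WT day 1 double-hyphen library, the Hk3 to Hk1 and Hk3 to Hk2 ratios had an exact permutation p of 0.02 each. Double-hyphen libraries of the other groups were kept.

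Per length, Hk3 held 73.8% ± 3.49 (SD, n = 3) of the summed hexokinase FPKM (a count scaled by length and total) in the WT label at day 0 and 40.1% ± 7.05 at day 3. Hk1 went from 11.9% ± 1.47 to 39.3% ± 7.85 and Hk2 from 14.3% ± 2.19 to 20.7% ± 1.08. KO-labelled libraries had 76.7% ± 3.36 Hk3 at day 0 and 42.6% ± 7.90 at day 3, and 10.6% ± 1.82 against 34.1% ± 7.38 Hk1. Summed FPKM of the 3 genes was 68.0 ± 6.20 at day 0 and 50.0 ± 2.29 at day 3 in the WT label, and 72.5 ± 11.6 and 46.3 ± 3.47 in the KO label. The lengths behind the deposited FPKM differ from GENCODE exon lengths (for Hk3 6105 against 3682 bases, for Hk1 12382 against 8532), and with GENCODE lengths Hk3 held 78.4% ± 3.02 and 45.1% ± 7.61 in the WT label, so the direction was the same by both lengths.

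**Figure D2:**
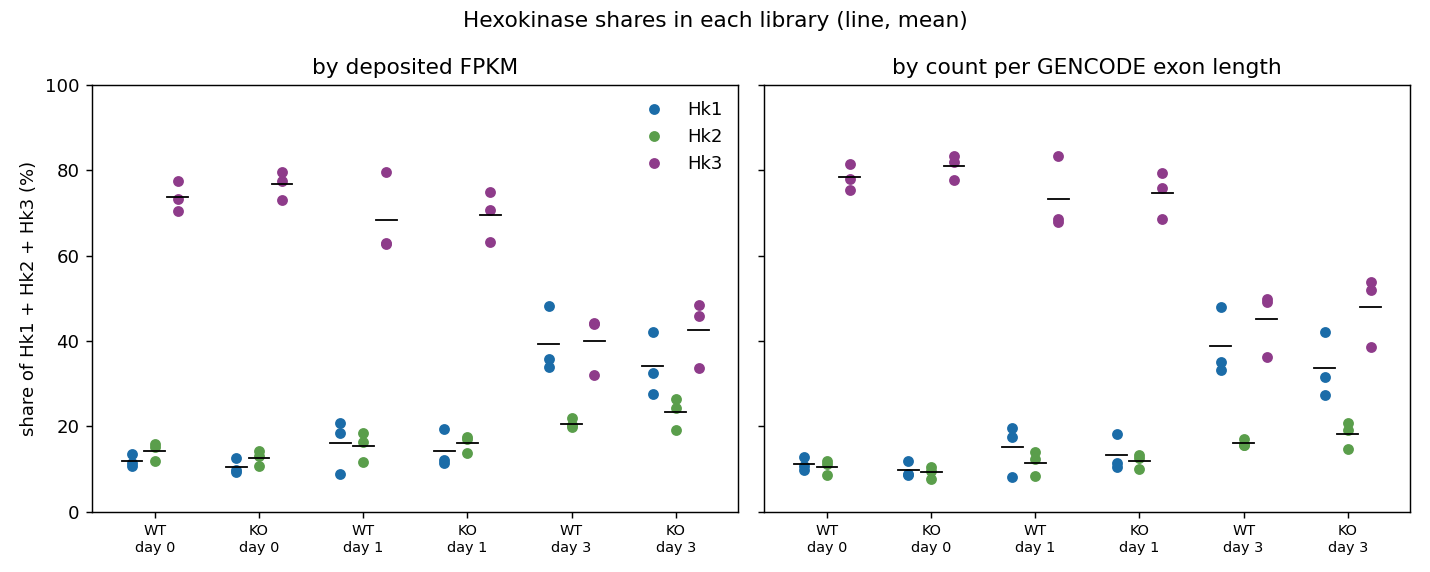
Share of the summed Hk1, Hk2 and Hk3 level (%) in each library by label and day, per length of the deposited FPKM (left) and per GENCODE exon length (right); points are libraries and lines group means. Hk3 is the largest share at days 0 and 1 in every library, and at day 3 its range reaches that of Hk1.

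Markers of neutrophils and macrophages, cells of the myeloid lineage in which Hk3 is known to be expressed, fell as well. All 10 neutrophil markers were called lower in both labels at day 3, beside 26.5% (WT) and 22.3% (KO) of all tested genes. Their summed level went from 859 to 3355 CPM (range over libraries) at day 0 to 59.6 to 91.6 in the WT label, and from 4033 to 12605 to 127 to 1281 in the KO label. Of 9 macrophage markers, 7 fell in each label, from 28989 to 56855 CPM in sum to 6183 to 12839 in the WT label and from 33299 to 59562 to 8506 to 17331 in the KO label. Of the neutrophil and macrophage markers, none was at 0 in all libraries of a group. The KO label had higher neutrophil markers at day 3 (median log2 fold change 3.24 over 10 genes, none called) and an Hk3 difference of 0.043 ± 0.29. The part of these cells in the Hk3 change was not tested.

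Pfkl, the liver-type phosphofructokinase, had 67.0, 58.9 and 72.1 CPM at day 0, 82.2, 110.1 and 84.5 at day 1 and 149.7, 134 and 215 at day 3 in the WT label. With the KO label it had 77.3, 80.4 and 76.0, then 156, 112 and 116, then 218, 338 and 206 CPM. Each day lay above the one before without overlap in both labels. The log2 fold change to day 3 was 1.33 ± 0.22 (adjusted p = 0.000216) in the WT label and 1.70 ± 0.22 (adjusted p = 7.11e-05) in the KO label.

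Pfkp, the platelet-type isoenzyme, went from 43.2, 37.8 and 38.3 CPM to 94.2, 68.8 and 115 by day 3 in the WT label and from 38.2, 44.9 and 42.1 to 86.9, 103 and 87.5 in the KO label. The days did not overlap, and the log2 fold changes were 1.22 ± 0.15 (adjusted p = 2.98e-05) and 1.15 ± 0.15 (adjusted p = 8.12e-05). Pfkp overlaps the end of Pitrm1, a gene on the opposite strand with 118% of the counts of Pfkp, and the strand setting of the counting is not stated, so reads in the overlap cannot be assigned to either.

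Pfkl was the larger of both by length: 80.1% ± 1.72 of the summed Pfkl and Pfkp FPKM at day 0 and 81.4% ± 1.65 at day 3 in the WT label, and 82.0% ± 0.988 and 86.7% ± 1.98 in the KO label. Another phosphofructokinase gene, Pfkm, is not a member and is left out of these shares. Its mean FPKM was 8.80 at day 0 and 11.5 at day 3 in the WT label, against 3.04 and 9.19 for Pfkp. In the KO label the means were 7.34 and 12.3 for Pfkm, against 3.26 and 8.84 for Pfkp. The Pfkl to Pfkp count ratio was 1.55, 1.56 and 1.88 at day 0, 1.44, 2.17 and 1.69 at day 1 and 1.59, 1.94 and 1.87 at day 3 with the WT label. In the KO label it was 2.02, 1.79 and 1.81, then 2.91, 2.14 and 2.27, then 2.51, 3.29 and 2.35. All KO-labelled libraries of day 3 exceeded all WT-labelled ones, and at days 0 and 1 the labels overlapped.

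Between labels the mean log2 ratio was 0.41 higher with the KO label (1.33-fold; exact 2-sided permutation of labels within days, p = 0.00175, 0.007 adjusted over the 4 ratios), by 0.17 at day 0, 0.47 at day 1 and 0.58 at day 3. Leaving out each library gave 0.36 to 0.46. The test takes libraries of different days as independent, which the labels do not say. In the KO label, libraries with the same number shared deviations from their group means across days. Over the day pairs, Pearson r ran from 0.054 to 0.598, so the p-value of this test may be too small. Neither gene alone was called between labels on any day, and Pfkl differed by 0.61 ± 0.21 (adjusted p = 0.339) at day 3 and Pfkp by -0.0061 ± 0.15. From day 0 to day 3 the ratio rose by 0.32 over both labels (exact permutation p = 0.02), by 0.52 in the KO label and 0.11 in the WT label, where the days overlapped. Whether the rise differs between the labels was not tested. With single-hyphen libraries alone it was 0.28 (exact permutation p = 0.1). At day 1 it had risen by 0.22 (exact permutation p = 0.12). Without the WT day 1 double-hyphen library, and with those of other groups kept, the rise was 0.29 (exact permutation p = 0.03). Summed stromal and osteoblast markers were higher with the KO label on all 3 days by their medians (3147 against 483 CPM, 3102 against 2254 and 25656 against 10875), with overlap at days 0 and 1 and 0 of 11 tested markers called on any day. Summed neutrophil markers were higher as well (medians 6253 against 2959 CPM, 2345 against 600 and 390 against 71.9), with overlap at day 1 and 0 of 10 markers called. The part of either in the ratio was not tested.

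**Figure D3:**
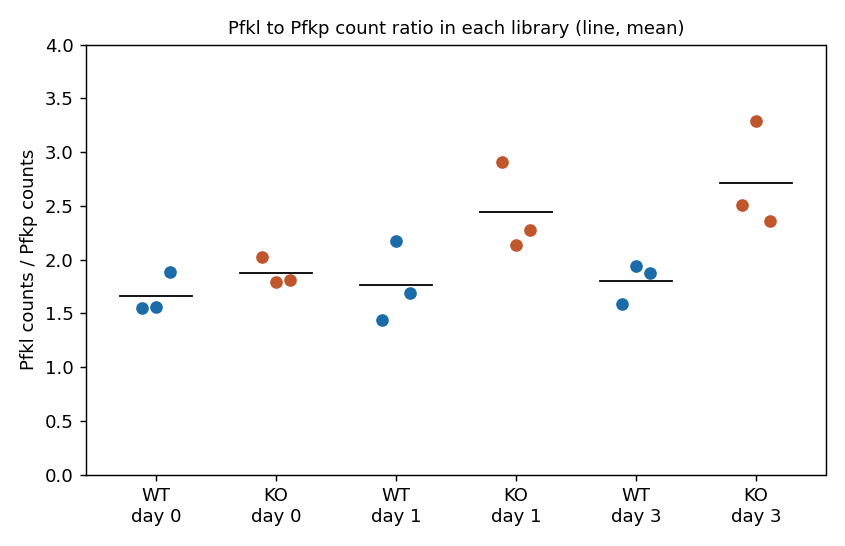
Ratio of Pfkl to Pfkp counts in each library (linear axis from 0) by label and day; points are libraries and lines group means. At day 3 the 3 KO-labelled libraries (2.35 to 3.29) lie above the 3 WT-labelled ones (1.59 to 1.94).

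Aldoa, the aldolase that splits fructose bisphosphate, had 849, 873 and 722 CPM at day 0 and 1342, 1265 and 1549 at day 3 in the WT label, and 758, 916 and 719 against 1309.8, 1696 and 1155 in the KO label. The days did not overlap, with log2 fold changes of 0.77 ± 0.17 (adjusted p = 0.00211) and 0.80 ± 0.17 (adjusted p = 0.00225). In the WT label its day 1 libraries (1082, 1126 and 1364) already lay above day 0, but the change was not called (0.55 ± 0.17, adjusted p = 0.0908).

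Pgk1 makes the first ATP of the pathway. It went from 210.1, 231 and 259.9 CPM to 544, 514 and 833 in the WT label and from 240.3, 236 and 270.3 to 649, 929 and 566 in the KO label, without overlap. Log2 fold changes were 1.43 ± 0.25 (adjusted p = 4e-04) and 1.52 ± 0.25 (adjusted p = 0.000415). Its day 1 libraries in the WT label were 264, 489 and 499.8 CPM, the first being the double-hyphen library. Without that library the day 1 change was called (1.09, adjusted p = 0.0104), and with it, it was not (0.84 ± 0.25, adjusted p = 0.0812). The double-hyphen library of WT day 0 was kept in both fits.

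Pkm, the pyruvate kinase gene whose splice forms are read together in these counts, had 1065, 799 and 1179.9 CPM at day 0, 1563, 2756 and 2486 at day 1 and 2046, 1727 and 2227 at day 3 in the WT label. In the KO label it had 1116, 1140.2 and 1344, then 1739, 1552 and 1619.8, then 1905, 2238 and 1886. In the WT label days 1 and 3 overlapped and both lay above day 0, while in the KO label each day lay above the one before. By day 3 it rose by 0.98 ± 0.21 (adjusted p = 0.00151) and 0.74 ± 0.21 (adjusted p = 0.0106) on the log2 scale.

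Ldha, which reduces pyruvate to lactate, went from 299.6, 202 and 395 CPM at day 0 to 878, 740.3 and 1159.7 at day 3 in the WT label and from 377, 348 and 389 to 979.7, 1341 and 878 in the KO label, without overlap. The log2 fold changes were 1.63 ± 0.26 (adjusted p = 0.000181) and 1.52 ± 0.26 (adjusted p = 0.000472), 3.10-fold and 2.87-fold. Among named copies of these enzymes, Aldoart1, Aldoart2, Pgk1-rs7, Ldha-ps and Ldha-ps2 had at most 0.261% of the count of their parent gene.

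**Figure D4:**
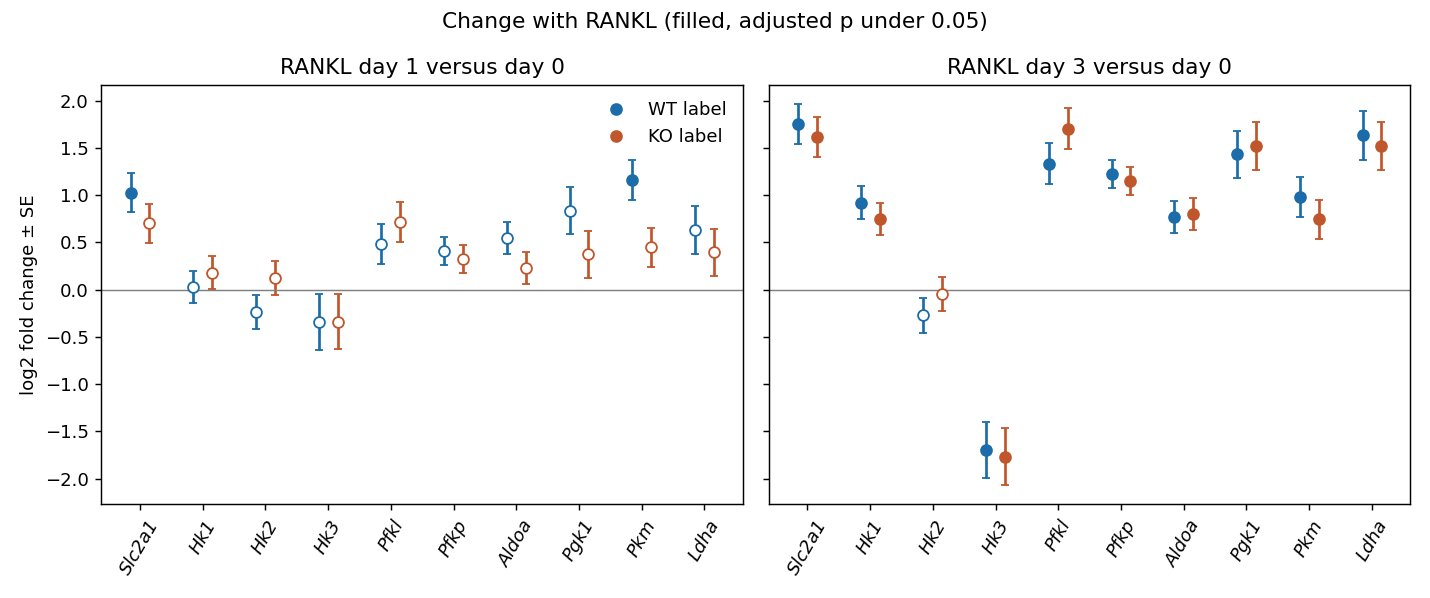
Log2 fold change (± SE) of the 10 members from day 0 to day 1 (left) and to day 3 (right), with WT-labelled libraries in blue and KO-labelled in orange; filled points have an adjusted p under 0.05. At day 3, 9 of 10 points are filled in each label, and at day 1 only Slc2a1 and Pkm in the WT label.

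At day 1 the calls were few. In the WT label Slc2a1 (1.03 ± 0.21, adjusted p = 0.0381) and Pkm (1.16 ± 0.21, adjusted p = 0.0342) were called higher, 2 of 10 members against 2.35% of all tested genes. Both calls were lost without WT day 0 library 2, without the single-hyphen WT day 1 library 1 or without WT day 1 library 2, and 5 members were called without the double-hyphen WT day 1 library (Hk3 lower, and Slc2a1, Aldoa, Pgk1 and Pkm higher). The KO label gave 0 calls among the members against 0.0211% of all genes by edgeR, with 4 members at an unadjusted p under 0.05 (10.2% of all genes) and 0 by DESeq2, and 6 of 10 members higher in all 3 day 1 libraries than in all 3 day 0 libraries, against 8.55% of all genes. In the WT label 6 of 10 were likewise higher, against 8.46%. Label differences in the day 1 change were not called for any member (largest Pkm, -0.71 ± 0.29, unadjusted p = 0.0274).

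From day 1 to day 3, 6 members were called in the WT label against 32% of all genes (Slc2a1, Hk1, Pfkl, Pfkp and Ldha higher, Hk3 lower) and 8 in the KO label against 28% (those 6, with Aldoa and Pgk1). Leaving out 1 library gave 4 to 6 calls in the WT label, where Slc2a1 was lost without WT day 3 library 3 or day 1 library 2 and Pfkl without WT day 3 library 3. It gave 6 to 8 in the KO label. There Hk1 and Aldoa were each lost without KO day 1 library 2 or day 3 library 2. Hk1 was also lost without day 1 library 1, and Aldoa without day 1 library 3. Over all 18 alternatives, these included, the Hk1 and Aldoa calls in the KO label were each lost in 5. With single-hyphen libraries alone Ldha was not called in the WT label (0.88, adjusted p = 0.0632), and Pgk1 was called with total counts, by the DESeq2 Wald test and by limma on log2 FPKM, and Aldoa with total counts and by limma on log2 FPKM. Single-hyphen libraries leave 1 KO day 1 library, taken to vary like the other groups, and none of the 8 KO calls was kept, with log2 fold changes of 0.95 for Slc2a1, 0.89 for Pfkp and 1.13 for Pgk1 against 0.91, 0.82 and 1.15 with all libraries, and of 0.42 for Hk1 against 0.56 and -0.94 for Hk3 against -1.43. The log2 fold changes of Hk1 were 0.89 ± 0.17 and 0.56 ± 0.17 in this step, against 0.028 ± 0.17 and 0.18 ± 0.17 from day 0 to day 1. Pkm went the other way in the WT label, with 1.16 ± 0.21 to day 1 and -0.18 ± 0.21 from day 1 to day 3, where total counts give 0.094.

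Between labels no member was called on any day: 0 of 10 at day 0 (0.119% of all genes called), day 1 (0.112%) and day 3 (0.14%) by edgeR, and 0 by DESeq2. At an unadjusted p under 0.05 there were 1, 2 and 1 members, against 7.59%, 7.9% and 10.7% of all genes. At day 0 it was Slc2a1 (0.49 ± 0.21, p adjusted 0.624), at day 1 Pfkl (0.47 ± 0.21) and Pkm (-0.47 ± 0.21), and at day 3 Pfkl. The interaction of label and day 3 was called for 0 members and 0 of 14241 genes, with 0 members and 5.4% of all genes at an unadjusted p under 0.05, and the largest member value was 0.37 ± 0.30 (Pfkl). The intervals leave room for differences: for Ldha at day 3 the label difference was 0.20 with an approximate 95% interval (normal distribution) from -0.29 to 0.70.

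Levels between genes were set side by side per length. By mean FPKM in the WT label at day 0 the order was Pkm (356 ± 72.0, SD), Aldoa (125 ± 11.2), Pgk1 (70.1 ± 10.9), Ldha (59.4 ± 20.5), Hk3 (50.2 ± 5.38), Pfkl (12.3 ± 1.47), Hk2 (9.72 ± 1.79), Hk1 (8.09 ± 0.843), Slc2a1 (4.11 ± 1.06) and Pfkp (3.04 ± 0.0733). Pgk1 and Ldha, Ldha and Hk3, and Hk2 and Hk1 were closer than their spreads. At day 3 Pkm (905 ± 135), Aldoa (276 ± 35.9), Pgk1 (243 ± 74.1) and Ldha (238 ± 60.7) led, and Pfkl (40.2 ± 11.4) was ahead of Hk3 (19.9 ± 2.79), Hk1 (19.7 ± 4.84) and Slc2a1 (17.8 ± 2.87) by the deposited FPKM. The order depended on the length used. By GENCODE exon length, Aldoa led Pkm, Hk3 led Ldha and Hk1 and Hk2 led Pfkl at day 0 in the WT label, Hk1 also led Hk2, and at day 3 Hk3 led Pfkl.

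The 8 members without Hk2 and Hk3 varied together over the 18 libraries (Pearson r of log2 CPM 0.54 to 0.95 over 28 pairs), while pairs with Hk3 ran from -0.95 to 0.43. The points share days, labels and libraries, and most of the range lies between days. Ldha was nearest to Fam162a (0.98), Tpi1 (0.97) and Timm23 (0.97), and Pgk1 to Mif (0.96), Tpi1 (0.96) and Eny2 (0.96). Pfkp was nearest to Pgam1 (0.97), the phosphoglycerate mutase, Pgam1-ps2 (0.96) and Ankrd13b (0.96). Slc2a1 was nearest to Pgam1-ps2 (0.94), Pgam1 (0.94) and Twsg1 (0.93), and Pfkl to Pgm2 (0.97), Fam162a (0.96) and P4ha2 (0.94). Neighbours of Hk1 were Diras1 (0.96), Golm1 (0.95) and Cubn (0.95). Those of Aldoa were Slc44a1 (0.95), Otud7b (0.93) and Layn (0.92), and those of Pkm Eif5a (0.95), Psmb5 (0.94) and Eftud2 (0.93). Hk3 was nearest to Max (0.98), Ctsb (0.98) and Tmem50a (0.98). Hk2 had no close neighbour, with Kif21b at 0.72, Stat3 at 0.71 and Frmd4a at 0.71.

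Among the other enzymes of glycolysis, 6 of 12 tested genes rose in the WT label by day 3 and none fell, with a median log2 fold change of 0.99 against -0.031 over all genes. In the KO label 6 of 12 rose and 1 fell. Over all tested genes, 23.7% were called higher and 26.5% lower in the WT label, and 20.2% and 22.3% in the KO label. Eno1, an enolase, rose by 2.10 ± 0.46 (adjusted p = 0.00202), Aldoc, an aldolase, by 2.01 ± 0.41, Ldhb, a lactate dehydrogenase, by 1.64 ± 0.30 and Pgam1 by 1.502 ± 0.20 in the WT label. 

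The other 7 tested genes of the Slc2a transporter family split. In the WT label 3 were called higher and 4 lower, and in the KO label 2 and 3. Over all tested genes, 23.7% were called higher and 26.5% lower in the WT label, and 20.2% and 22.3% in the KO label. Slc2a13 rose by 3.71 ± 0.97 on the log2 scale in the WT label, from a mean of only 0.24 CPM at day 0 to 3.36 at day 3. Slc2a9 fell by 1.85 (SE 0.27, adjusted p = 9.83e-05) in that label. Of 5 lactate transport genes 2 rose in the WT label: Slc16a1 by 1.81 ± 0.27 and Slc16a3, a lactate exporter, by 1.68 ± 0.33. In the KO label 3 of 5 rose. Of the 5 genes that make or break down the activator of phosphofructokinase 4 were called in the WT label, Pfkfb4 (-1.64 ± 0.22) and Pfkfb3 (-1.34 ± 0.33) lower and Pfkfb2 (1.17 ± 0.22) and Tigar (0.90 ± 0.18) higher, against 2 higher and 1 lower in the KO label.

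At the entry of pyruvate into mitochondria, 9 of 14 genes rose and 1 fell in the WT label, and 8 rose and 2 fell in the KO label. Pdk1, a kinase that blocks pyruvate dehydrogenase, rose by 2.10 ± 0.34, and the subunit genes Pdhb, Pdha1 and Dlat rose by 1.70 ± 0.19, 1.44 ± 0.15 and 1.41 ± 0.14. The pentose phosphate pathway, which draws on the same glucose phosphate, had 2 of 8 genes higher and 3 lower in the WT label and 0 higher and 3 lower in the KO label, beside 23.7% of all genes higher and 26.5% lower in the WT label and 20.2% and 22.3% in the KO label. The median log2 fold change of the 8 genes was -0.069 in the WT label and -0.27 in the KO label. G6pdx, the first enzyme of the pathway, fell by 1.42 (SE 0.17, adjusted p = 2.18e-05) in the WT label, Taldo1 by 0.77 and Pgd by 0.57. Rpia rose by 0.50 ± 0.18 (adjusted p = 0.0304) in that label. Of the gluconeogenesis genes, 3 of 6 were tested and G6pc3 (0.64 ± 0.21) and Pck2 (-0.74 ± 0.29) were called in the WT label and none in the KO label.

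Of 16 known targets of the hypoxia-inducible factor outside glycolysis, 8 rose and 1 fell in the WT label, and 9 rose and 1 fell in the KO label. Beside these and the regulators below, 23.7% of all tested genes were called higher and 26.5% lower in the WT label, and 20.2% and 22.3% in the KO label. Ankrd37 rose by 3.05 ± 0.92 (adjusted p = 0.0133), Egln3 by 2.10 ± 0.69, Ddit4 by 2.08 ± 0.33 and P4ha2 by 2.01 ± 0.29 in the WT label. Among 9 tested regulators, 3 rose and 4 fell in the WT label: Ppargc1b by 3.82 ± 0.34, Myc by 2.49 ± 0.50 and Esrra by 0.59 ± 0.14, while Max, the partner of Myc, fell by 1.23 (SE 0.20). In the KO label 2 rose and 1 fell, and 6 were not called, with a median of 0.22 against -0.16 in the WT label. Hif1a, named after its values were seen, had 152 ± 24.2 CPM at day 0 and 136 ± 15.3 at day 3 in the WT label, not called.

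**Figure D5:**
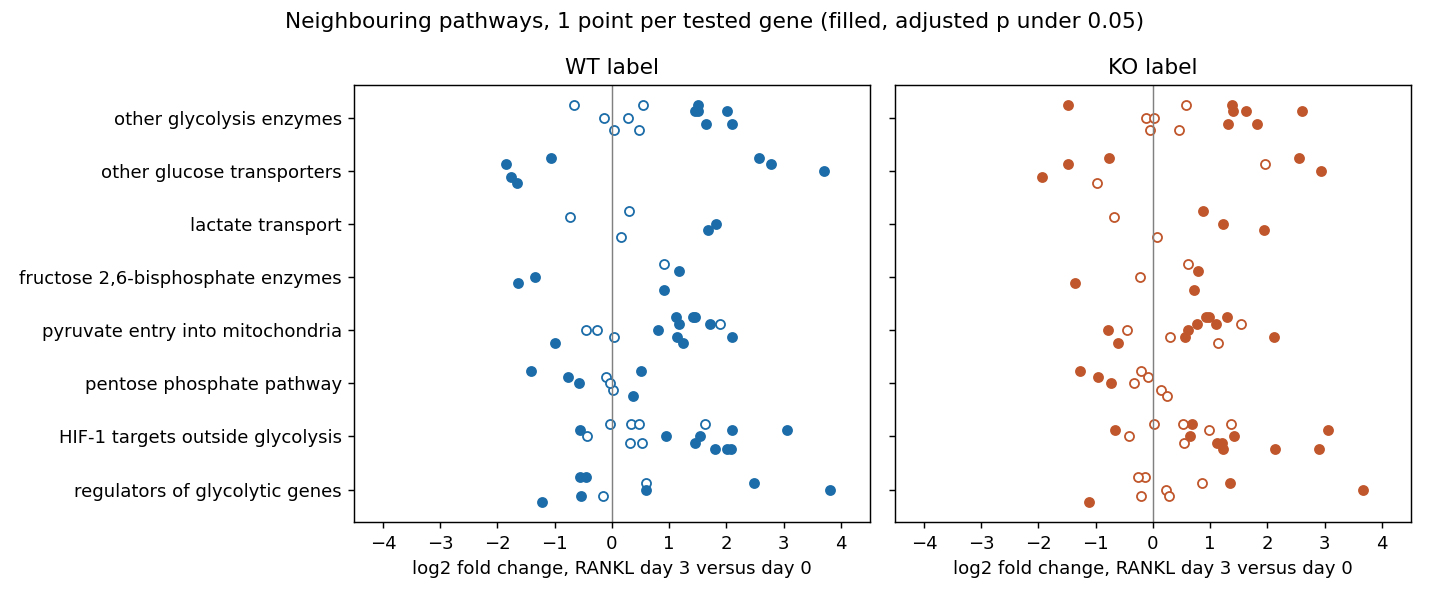
Log2 fold change from day 0 to day 3 of each tested gene of 8 neighbouring lists, 1 point per gene, for the WT label (left) and the KO label (right); filled points have an adjusted p under 0.05. Lactate transport and pyruvate entry lie mostly to the right of 0. The list labelled other glucose transporters, Slc2a genes that need not all carry glucose, lies on both sides.

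Marker genes of several cell types changed beside these genes. Osteoclast markers rose, 9 of 10 in each label, with sums of 224 to 649 CPM at day 0 and 16039 to 23380 at day 3 in the WT label and 670.5 to 988 and 8293 to 17734 in the KO label. Stromal and osteoblast markers rose as well, 7 of 11 tested in the WT label and 10 of 11 in the KO label, with sums of 80.4 to 4357 CPM at day 0 and 10122 to 13136 at day 3, and 921 to 3228 and 18423 to 26197, and Bglap at 0 in the WT-labelled groups. B cell markers fell in 4 of 6 genes (WT) and 2 of 6 (KO) with sums of at most 53.4 CPM, and those of T and NK cells (1 of 3 tested fell in each label), erythroid cells (0 of 4) and mast cells and basophils (0 of 3) had sums of at most 30.3 CPM. Of the cell cycle genes, 2 of 10 were called higher with the WT label and 0 of 10 with the KO label. Over all tested genes, 23.7% were called higher and 26.5% lower in the WT label, and 20.2% and 22.3% in the KO label. How much of the rise of the glycolysis genes comes from each cell type was not tested.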

How the data were processed

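Bone marrow-derived macrophages were profiled by RNA-seq in 18 libraries, in 6 groups of label and day with 3 libraries each. The authors extracted RNA on columns, prepared libraries with a SMARTer kit and deposited, for each gene and library, read counts and FPKM values in 1 table; the submitters' notes name StringTie and the builds GRCm38.p4 and mm10. The deposited counts were whole numbers; the aligner, the counting program and the strand setting are not given in the sources used here. The deposited FPKM values equalled the count scaled by 1 length per gene and by the total count, to a relative tolerance of 0.001, in all 8099 genes checked.

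The count test was edgeR 4.0.16 under R 4.3.3 (filterByExpr, 14241 of 34745 genes kept; TMM scaling; quasi-likelihood test over the 6 groups). P-values were 2-sided and adjusted over the 14241 genes (Benjamini-Hochberg), with calls made below an adjusted p of 0.05. The authors' own threshold, a fold change above 1.5 or below 0.66 at an unadjusted p under 0.05, was an alternative, as were DESeq2 1.42.0 and limma 3.58.1 on log2 FPKM with a pseudocount of 1. Ratios between isoenzymes were compared within libraries by exact 2-sided permutation tests, with p adjusted over the 4 ratios of each contrast. The scripts were tested on simulated data. Promoter windows came from RefSeq (GRCm38.p6) and exon lengths from GENCODE M21 (Python 3.11.15). The members and gene lists were chosen with earlier results of these data known. Named genes were the 10 members and Zmat1, up to 4 called genes with the largest change in the WT label to day 3 from each list (at least 1 CPM in the higher group), and the 3 genes nearest to each member in pattern.

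The replicate numbers in the titles are not said to mark shared animals or days. In the KO label, deviations from the group means of libraries with the same number correlated above 0.1 in all 3 pairs between days 0 and 3. They did so in all 3 pairs between days 1 and 3. Between days 0 and 1 they did so in 2 of 3 pairs (r 0.054 to 0.598). In the WT label it was 1 of 3, 0 of 3 and 2 of 3 pairs (r -0.464 to 0.604 between days 0 and 1). The WT label did not show this throughout, so the numbers were not taken as pairs. The tests take libraries as independent across days, which these values leave unsure for the KO label.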

Additional observations from a re-analysis of the deposited data

How the results depend on the processing

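The 9 calls of each label from day 0 to day 3 held under every alternative tried, and no member was called between labels except at the unadjusted threshold of the study (1 at day 3). The day 1 calls in the WT label depended on the settings: 4 with the unadjusted threshold, 4 by DESeq2, 0 when the groups compared were fitted alone, 1 with single-hyphen libraries only, and 0 to 5 when each library was left out. With a replicate block they were 1, and with a replicate block within label 0; the block changed no other count of calls. In the KO label 2 members passed the unadjusted threshold at day 1, and 0 were called from day 1 to day 3 with single-hyphen libraries only (added after seeing the data). No copy of Pkm is named in the table, so no fit with copies was made for it.

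Hk2 changed sign with the scaling. With total counts its log2 fold change was 0.085 (WT, day 3 versus day 0), 0.22 (KO), 0.28 (WT, day 3 versus day 1) and 0.11 (KO). On log2 FPKM by limma the 4 values were 0.090, 0.21, 0.25 and 0.088. From day 1 to day 3 in the WT label it was also 0.014 with the stricter filter, 0.022 with DESeq2 size factors, 0.023 by DESeq2, 0.015 when fitted alone, 0.025 with the libraries numbered 1 averaged and 0.094 with single-hyphen libraries only. By DESeq2 the KO value at day 3 was 0.00096, and with single-hyphen libraries only it was -0.17 (KO, day 1) and 0.030 (KO, day 3 versus day 1). Leaving out each library gave -0.26 to 0.11 (KO, day 3), -0.021 to 0.25 (KO, day 1) and -0.077 to 0.067 (WT, day 3 versus day 1). Pkm from day 1 to day 3 in the WT label was 0.094 with total counts, 0.16 on log2 FPKM and -0.37 to 0.0034 leaving out each library, and Hk1 at day 1 in the WT label -0.13 to 0.14. None of these was called, and the cause was not tested.

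The Pfkl to Pfkp ratio from day 0 to day 3 was 0.28 with single-hyphen libraries only, 0.52 in the KO label and 0.11 in the WT label; its label difference was 0.17 on day 0 alone. The label difference of the Hk2 to Hk1 ratio was 0.0082 on day 0 alone. Leaving out each library, the day 1 ratios were -0.75 to -0.35 (Hk3 to Hk1), -0.51 to -0.26 (Hk3 to Hk2) and 0.14 to 0.29 (Pfkl to Pfkp), and the label difference of Hk3 to Hk2 -0.044 to 0.14.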
